A study of Mus musculus with 4 samples.

Results

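Protein ubiquitination runs through a cascade of enzymes: an E1 activates ubiquitin, an E2 conjugating enzyme carries it, an E3 ligase selects the substrate, E4 factors of the U-box type lengthen the chain, and deubiquitinases take ubiquitin off again. Ubiquitin-specific proteases (USPs) are the largest family of deubiquitinases, and some E2 family members carry the related modifiers SUMO, NEDD8 or ISG15 instead. The cascade sends proteins to the proteasome and also acts on chromatin, DNA repair, endosomal sorting and cell cycle progression, all of which operate in dividing retinal progenitors. N6-methyladenosine (m6A) is an internal mark of messenger RNA that binds reader proteins and is best known for shortening the life of the transcripts that carry it. The genes described here were chosen by symbol, as those named Ube2, Ube3 or Ube4 with a letter and an optional number, or Usp with a number and an optional letter. They were 81 of the 20001 genes with a listed m6A site in at least 1 of 4 libraries: 29 Ube2 genes (E2 enzymes and E2-like variants), 3 Ube3 genes (E3 ligases of the HECT type), 2 Ube4 genes (E4 factors) and 47 Usp genes. Symbols with a different ending, such as those of gene copies with an extra letter, were outside this choice.

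The study profiled m6A in polyA RNA of day 6 mouse retinal organoids by GLORI, a chemistry that turns unmethylated adenosine into inosine, which is sequenced as G, and leaves m6A to be sequenced as A. All libraries came from an Rx:GFP line with the FKBP12F36V-HA degron at the C-terminus of the endogenous Mettl3 gene, whose product is the catalytic subunit of the mRNA m6A methyltransferase, so the untreated controls carry the degron too. Libraries labelled 0hr (untreated replicates 1 and 2) received no dTAG13, and libraries labelled 8hr (dTAG13 replicates 1 and 2) received 125 nM dTAG13, a compound that directs degron-tagged proteins to the proteasome, for 8 h, with all cells harvested together. The genotype text of the 4 samples names a different Mettl gene in each, whereas the series title and design name METTL3. The tables hold no protein measurement, so the loss of METTL3 itself could not be checked here. Nothing in the labels says that the libraries of a group came from separate cultures, so the p-values below measure the spread between these libraries, which may be technical. The exception is Fisher's exact test on summed reads, which measures no spread between libraries. With 2 libraries against 2, the smallest p that an exact two-sided permutation test can give is 0.333.

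The tables listed between 14920 and 16629 genes per library, and the 81 genes of interest were represented by 79, 81, 81 and 79 genes in untreated replicates 1 and 2 and dTAG13 replicates 1 and 2. A site is listed only if it had at least 15 reads of A or G, at least 5 reads of A and a level of at least 10%, and passed the authors' test, so a position that is missing from a table may be unmethylated, below these limits or not covered. The median depth of the member sites was 100, 107, 94 and 116 reads in the same order. All 11 retinal progenitor markers examined were listed in all 4 libraries, as were all 5 pluripotency markers and both telencephalon markers, while 1 of 6 mesoderm and endoderm markers and 1 of 5 retinal neuron markers were. Summed coverage of the retinal progenitor markers was 5633 and 6704 untreated and 3824 and 5609 with dTAG13, and that of the pluripotency markers ran from 438 to 611. The part of these marker levels in the results below was not tested. The labels name mm10, but only 14.6% of the 8260 listed member positions fell inside the interval of their gene in the GRCm38 RefSeq table, although 100% lay on its chromosome. Positions are therefore given exactly as in the tables, with the build unsettled, and exon, intron or UTR annotation and the surrounding sequence were not used here.

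Fewer sites were listed in this set of genes after dTAG13. The 81 genes had 2681 and 2718 listed sites untreated and 1722 and 1925 with dTAG13. The groups did not overlap, with means of 2699.5 ± 26.2 and 1823.5 ± 143.5 sites (SD, n = 2 each), a ratio of 0.675 (exact permutation test, two-sided p = 0.333, the smallest possible). In all other genes the same ratio was 0.715, so a lower number of listed sites was common to the whole table. The median share of A read as G in the member genes, the conversion rate given by the authors, was 96.2% and 96.7% untreated and 97.2% and 97.1% with dTAG13, and its part in the difference was not tested.

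Coverage was lower too. The coverage value that the authors give for each gene, summed over members, was 14478 and 15547 untreated and 10395 and 13845 with dTAG13. The ratio of the means was 0.807, beside 0.848 for the other genes, where the groups overlapped. Each sum covers only the genes listed in that library. In all, 16473 and 16629 genes were listed untreated and 14920 and 15906 with dTAG13. The part of this in the ratios of the other genes was not tested. The coverage value is not normalised to depth. Library depth, fewer cells of a type and less RNA per cell therefore cannot be told apart in bulk organoids. Set against this coverage, members had 18.5 and 17.5 listed sites per 100 units of coverage untreated and 16.6 and 13.9 with dTAG13. The groups did not overlap on this scale, and the ratio of the means was 0.846 (exact permutation p = 0.333), beside 0.861 for the other genes. In the 27 members whose coverage stayed within 1.5-fold across the 4 libraries, listed sites numbered 1055 and 1071 untreated and 702 and 751 with dTAG13, a ratio of 0.683, against 0.695 for the 3670 other genes that met the same condition.

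The number of listed sites differed less between the groups in E2 genes than in USP genes. The 29 Ube2 genes had 832 and 775 sites untreated and 588 and 662 with dTAG13, a ratio of 0.778. The 47 Usp genes had 1604 and 1670 sites untreated and 969 and 1089 with dTAG13, a ratio of 0.629. Per 100 units of coverage the Ube2 genes had 9.15 and 8.21 sites untreated and 9.84 and 8.19 with dTAG13, so that the groups overlapped, with a ratio of 1.04. On the same scale the Usp genes had 33.2 and 30.4 sites untreated and 24.4 and 21.1 with dTAG13, without overlap and with a ratio of 0.715. In the 8 Ube2 genes with coverage within 1.5-fold, the values were 11.1 and 10.3 untreated and 8.97 and 9.46 with dTAG13. These groups did not overlap, and the ratio was 0.862. In the 16 such Usp genes the values were 44.4 and 43.9 untreated and 32.1 and 29.0 with dTAG13, a ratio of 0.692.

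The quotient of the Usp value over the Ube2 value, taken within each library, was 3.63 and 3.70 untreated and 2.48 and 2.57 with dTAG13 (exact permutation p = 0.333). This contrast between the classes was chosen after their values were seen. The dTAG13 to untreated ratio of this quotient was 0.689, and it was 0.803 when restricted to the 8 Ube2 and 16 Usp genes with coverage within 1.5-fold, where the quotients were 4.01 and 4.26 untreated and 3.58 and 3.06 with dTAG13. The distance between the classes in any library also carries transcript length, which was not used here. Summed Ube2 coverage was 0.759 times the untreated level with dTAG13 and summed Usp coverage 0.885 times, and the part of this difference in the class contrast was not tested.

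**Figure D1:**
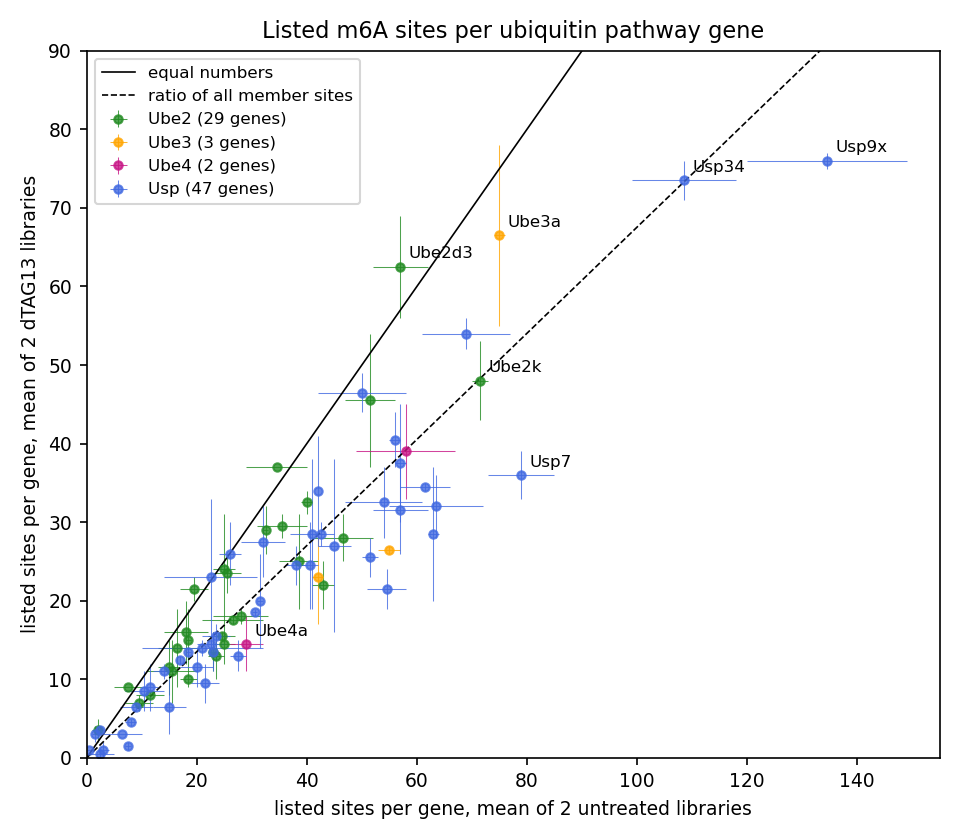
Mean number of listed m6A sites per gene in the 2 untreated libraries (x axis) and the 2 dTAG13 libraries (y axis); each point is 1 of the 81 genes, coloured by class, and bars run from the lower to the higher library. The solid line marks equal numbers and the dashed line the ratio of all member sites (0.675); Usp7 and Usp9x lie below the dashed line, Ube3a and Ube2d3 above it.

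Gene by gene, 78 members were listed in all 4 libraries (Usp26, Usp43 and Usp49 were not). In 48 of these 78 (61.5%) both dTAG13 libraries had fewer listed sites than both untreated libraries, where 44.6% of all 12520 genes listed in every library did. None of the 78 had more sites in both dTAG13 libraries, against 4.53% of all genes. Genes with more sites separate more easily, and among members with a mean of at least 10 untreated sites 46 of 69 were lower, against a background of 57.3%, and 0 were higher, against 2.80%. The median ratio of those 69 genes was 0.660, with an interquartile range from 0.575 to 0.810, and that of the 8173 comparable other genes was 0.682. By class, sites were lower in 13 of 29 Ube2, 2 of 3 Ube3, 2 of 2 Ube4 and 31 of 44 Usp genes. Per unit of coverage, 32 of the 78 were lower (background 37.7%) and 5 were higher (background 10.5%). Of these, 5 lower and 4 higher genes were among the 29 Ube2 genes, and 23 lower and 1 higher among the 44 Usp genes.

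Among the E2 genes, Ube2d3, a broadly acting conjugating enzyme, had a similar number of listed sites in both groups. It had 62 and 52 listed sites untreated and 56 and 69 with dTAG13, which overlapped, but 181 of its 208 positions were in a single library, so most of the sites were not the same ones. Meanwhile its coverage was 630 and 634 untreated and 331 and 454 with dTAG13. Its sites per 100 units of coverage were thus 9.84 and 8.20 untreated and 16.9 and 15.2 with dTAG13, higher in both dTAG13 libraries. Ube2m, the E2 for the ubiquitin-like modifier NEDD8, showed the same order, with 3.43 and 2.59 sites per 100 units untreated and 7.00 and 4.49 with dTAG13. Ube2e2 was another such gene, at 5.16 and 3.36 untreated and 7.20 and 7.91 with dTAG13. In all 3 genes both dTAG13 libraries had lower coverage than both untreated libraries. Ube2 genes share stretches of sequence with paralogs and processed copies, and how reads were divided among them is not given in the sources used here, so values of single Ube2d, Ube2e and Ube2v genes are uncertain to that extent.

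Other E2 genes had fewer sites in both dTAG13 libraries. Ube2k, an E2 that builds chains by itself, had 70 and 73 sites untreated and 43 and 53 with dTAG13. Ube2j1, an E2 anchored in the endoplasmic reticulum membrane, had 45 and 41 untreated and 25 and 19 with dTAG13, and Ube2q1 had 52 and 41 against 25 and 31. Neither of these last pairs overlapped between groups. Ube2l3, which serves HECT and RBR type ligases, had 42 and 35 untreated and 19 and 31 with dTAG13, but its coverage was also lower and its sites per 100 units, 6.27 and 5.30 untreated and 6.36 and 6.80 with dTAG13, were higher in both dTAG13 libraries. Ube2d3, Ube2e2, Ube2l3 and Ube2m were the 4 Ube2 genes that were higher on this scale. Ube2j1 and Ube2k were named here after their values were seen.

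The 3 HECT type ligases differed among themselves. Ube3a, the ligase lost in Angelman syndrome, had 76 and 74 listed sites untreated and 78 and 55 with dTAG13, and the groups overlapped. Ube3b had 41 and 43 untreated and 17 and 29 with dTAG13, and Ube3c, a proteasome-associated ligase, had 53 and 57 untreated and 26 and 27 with dTAG13. For Ube3b and Ube3c both dTAG13 libraries were lower, with ratios of 0.548 and 0.482, and they stayed lower per unit of coverage. Ube3c had 46.8 and 45.6 sites per 100 units untreated and 27.6 and 20.9 with dTAG13. The U-box factor Ube4b had 49 and 67 sites untreated and 33 and 45 with dTAG13, without overlap.

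USP genes, which are 47 of the 81 members, were 3 of the 5 members with the most listed sites and 4 of the 5 with the most per unit of coverage. Usp9x, an X-linked deubiquitinase with many substrates, had 120 and 149 sites untreated and 77 and 75 with dTAG13, the most of any member in total, on coverage of 101 and 100 untreated and 81.9 and 110 with dTAG13. Its sites per 100 units of coverage were 118 and 149 untreated and 94.1 and 68.4 with dTAG13, so this gene was separated on both scales while its coverage overlapped. Usp34, a deubiquitinase of the Wnt pathway component axin, had 99 and 118 sites untreated and 71 and 76 with dTAG13, and 90.4 and 111 per 100 units untreated against 89.2 and 80.1. Usp47, a deubiquitinase of the base excision repair polymerase, had 77 and 61 sites untreated and 56 and 52 with dTAG13. Usp48 had 63.0 and 66.3 sites per 100 units untreated and 42.6 and 41.8 with dTAG13, and Usp24 had 66.5 and 55.7 untreated and 47.6 and 34.9 with dTAG13. All 5 of these USP genes had fewer listed sites in both dTAG13 libraries than in either untreated library, and per unit of coverage Usp47 was the exception, at 42.9 and 38.0 untreated and 43.1 and 30.9 with dTAG13.

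Among the other USP genes, Usp7, the deubiquitinase of MDM2, had 85 and 73 sites untreated and 33 and 39 with dTAG13, a ratio of 0.456. The lowest ratio among the 69 members with at least 10 untreated sites was that of Usp37, a deubiquitinase active at the start of S phase, with 58 and 51 sites untreated and 19 and 24 with dTAG13 (ratio 0.394). Usp19 had 64 and 62 untreated and 20 and 37 with dTAG13, and Usp5, which disassembles unanchored ubiquitin chains, had 50 and 53 untreated and 28 and 23 with dTAG13. At the other end, Usp38 had 28 and 24 untreated and 30 and 22 with dTAG13, and Usp44, a deubiquitinase of the spindle checkpoint, had 14 and 31 against 13 and 33. Both genes overlapped between the groups. Usp5, Usp19, Usp37 and Usp38 were named after their values were seen.

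The difference in listed sites was not the same at all methylation levels. Member sites below 20% numbered 988 and 1050 untreated and 548 and 634 with dTAG13, a ratio of 0.580. Between 20% and 50% the ratio was 0.663, and between 50% and 90% it was 0.684. Sites at 90% or more numbered 283 and 283 untreated and 277 and 320 with dTAG13, which overlapped, with a ratio of 1.05. In other genes the ratios from the lowest to the highest of these 4 ranges were 0.681, 0.690, 0.719 and 0.848, and at 90% or more both dTAG13 libraries had fewer sites (31155 and 36843) than both untreated libraries (40917 and 39282). The share of member sites at 90% or more was 10.6% and 10.4% untreated and 16.1% and 16.6% with dTAG13, higher in both dTAG13 libraries (exact permutation p = 0.333). In other genes this share was 15.9% and 14.6% untreated and 17.6% and 18.4% with dTAG13. The median level of the listed member sites was 25.4% and 24.8% untreated and 28.6% and 28.9% with dTAG13, a comparison between lists that hold mostly different positions.

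Both classes showed this pattern. Usp genes had 535 ± 56.6 sites below 20% untreated and 276 ± 43.8 with dTAG13 (SD, n = 2 each), without overlap, while their sites at 90% or more numbered 201 and 214 untreated and 191 and 227 with dTAG13. Ube2 genes had 421 and 386 sites below 20% untreated and 275 and 290 with dTAG13, and 56 and 39 at 90% or more untreated against 54 and 59. Listed sites also lay close together: another listed site of the gene lay within 10 bases in the same library for 35.9% and 33.1% of member sites untreated and for 28.0% and 27.7% with dTAG13. In other genes these shares were 32.1% and 30.2% untreated and 29.2% and 28.9% with dTAG13.

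**Figure D2:**
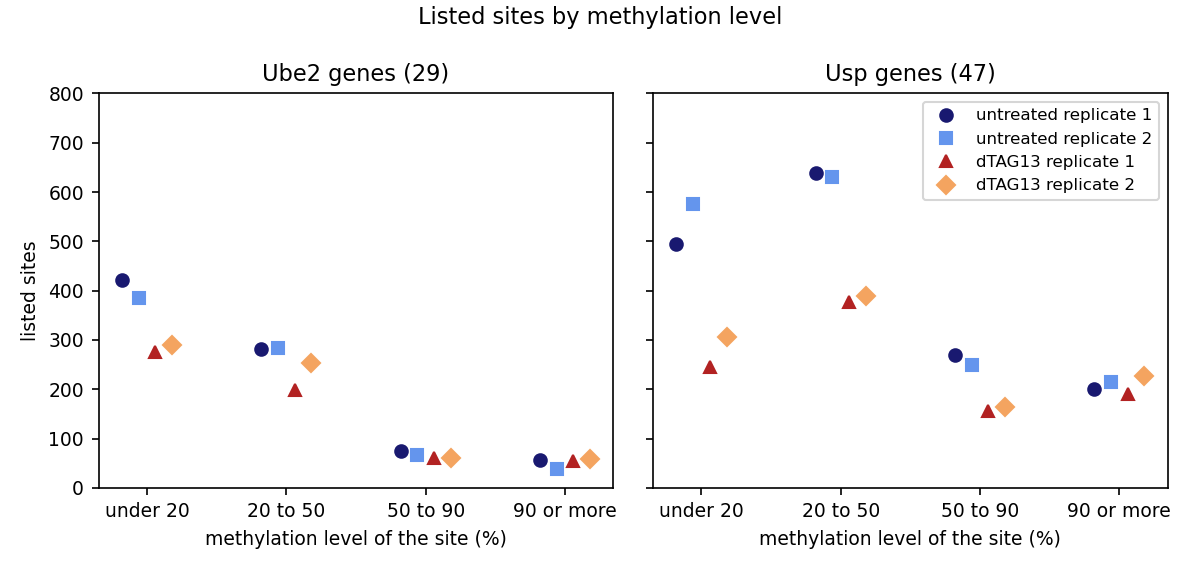
Number of listed sites (y axis) by methylation level in percent (x axis) for the 29 Ube2 genes (left) and the 47 Usp genes (right); each symbol is 1 library. In both panels the 2 dTAG13 libraries lie below both untreated libraries under 20%, and the groups overlap at 90% or more.

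Few member positions recurred between libraries, in either group. Of the 8260 positions listed for the 81 genes, 7548 (91.4%) were in 1 library, 649 in 2, 52 in 3 and 11 in all 4, and in other genes 91.4% were in 1 library. The untreated libraries shared 279 member positions, 10.4% of the sites of replicate 1 and 10.3% of those of replicate 2. The dTAG13 libraries shared 81, or 4.70% and 4.21% of their sites, and the 4 pairs of an untreated and a dTAG13 library shared between 116 and 143. The count was thus highest between the untreated libraries and lowest between the dTAG13 libraries, whose lists are also shorter. The order was the same in other genes. There the untreated libraries shared 24807 positions, the mixed pairs 12834 to 14037 and the dTAG13 libraries 11075. Of the member sites of a dTAG13 library, an untreated library listed 6.74% to 7.43%. Single-library member positions had a median level of 27.6% and a median depth of 97 reads, and those in 2 or more libraries 22.1% and 144 reads. Genomic distances were taken upstream from the 3′-most listed position of the gene. Their median was 3243 bases for single-library positions and 2336 bases for positions in 2 or more libraries. It was 1112 bases for the 64 positions that both untreated libraries listed at a mean of at least 50%. In other genes the medians fell in the same order, at 2091, 1597 and 1468 bases.

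An untreated site was listed again less often in a dTAG13 library than in the other untreated library. Untreated replicate 1 had 2066 member sites covered by 50 reads or more. Of these the other untreated library listed 11.6% (95% interval by Wilson's method 10.3% to 13.1%), while the first dTAG13 library listed 4.94% (4.08% to 5.96%) and the second 5.95% (5.01% to 7.06%). Of 2110 such sites of untreated replicate 2, 11.8% were listed in untreated replicate 1, 4.83% in dTAG13 replicate 1 and 5.26% in dTAG13 replicate 2. The intervals cover counting error only. Averaged over references and targets, recovery with dTAG13 was 0.447 of that in the other untreated library, and in other genes it was 0.559. Summed member coverage with dTAG13 was 0.807 of the untreated level, and its part in the recovery was not tested.

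Recovery depended on the level. For member sites at 10% to 20% in the reference library the ratio was 0.613, and for sites at 50% or more it was 0.198 (other genes 0.748 and 0.279). Of 292 member sites at 50% or more in untreated replicate 1, the other untreated library listed 19.2% (15.1% to 24.1%), the first dTAG13 library 3.42% (1.87% to 6.19%) and the second 2.40% (1.17% to 4.86%). Recovery of these sites was below that in the other untreated library in both dTAG13 libraries, with intervals that did not overlap. Low recovery in a dTAG13 table was not limited to untreated sites, since member sites at 50% or more in 1 dTAG13 library were listed in the other at 2.70% and 4.27%. These were 5 of 185 and 12 of 281 sites, and in other genes the shares were 3.92% and 2.94%. An untreated library listed such dTAG13 sites of members 1.77 times as often as the other dTAG13 library did (other genes 1.48).

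The sites most methylated in both untreated libraries were mostly not listed with dTAG13, as were most shared sites of lower level. Of the 279 shared positions, 64 in 37 genes had a mean level of at least 50%, and 54 of these (84.4%) were in neither dTAG13 table, 9 were in 1 and 1 was in both. In other genes 85.1% of such positions were in neither, and of the 215 shared member positions below 50% 79.5% were in neither, so the share was close to both backgrounds. Of the 54, 41 had another listed site within 100 bases with at least 50 reads in at least 1 dTAG13 library. By library, such a neighbour was present for 30 of the 59 positions unlisted in dTAG13 replicate 1. In dTAG13 replicate 2 it was present for 35 of 58. Whether the unlisted positions themselves were covered was not tested. The reverse order involved fewer positions but a similar share. The dTAG13 libraries shared 15 positions with a mean of at least 50%, and 13 of them (86.7%) were in neither untreated table. In other genes 79.8% of such positions were in neither untreated table. Requiring at least 50% and at least 50 reads in both untreated libraries left 20 sites in 19 genes, of which 2 were listed in any dTAG13 library. Neither this count nor that of listed neighbours was taken over other genes.

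**Figure D3:**
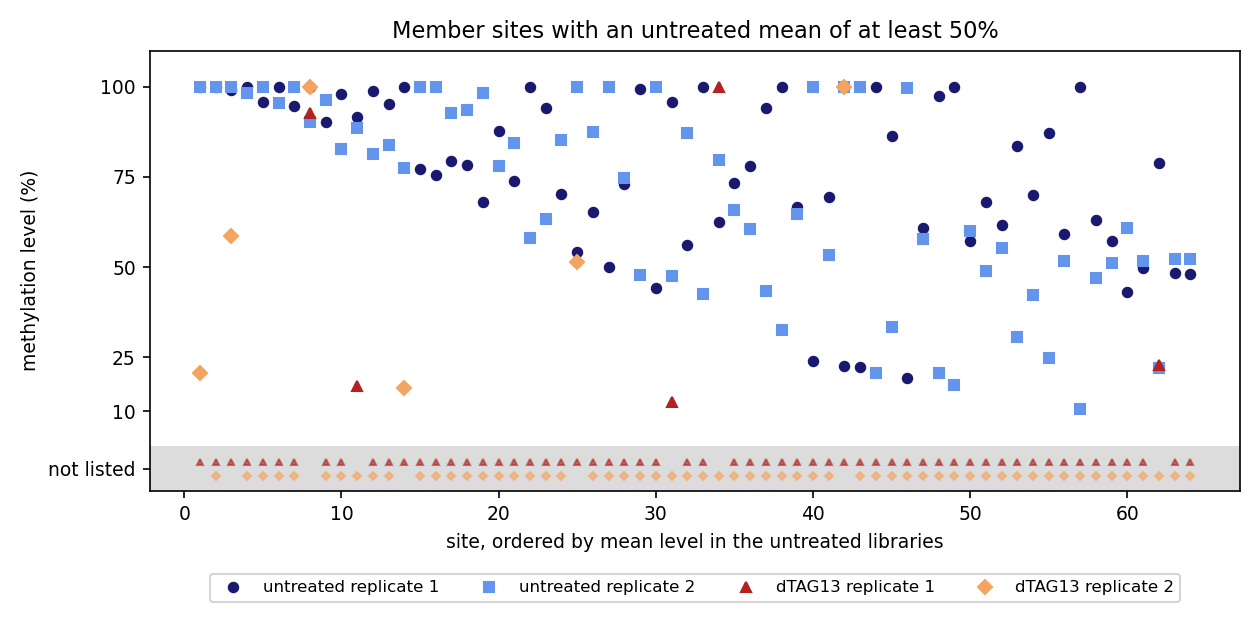
Methylation level in percent (y axis) of the 64 member positions that both untreated libraries listed at a mean of at least 50%, ordered along the x axis by that mean; symbols are libraries, and small symbols in the grey band mark dTAG13 libraries in which a position was not listed. Most positions carry both small symbols: 54 of 64 were listed in neither dTAG13 library.

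The site with the highest untreated mean among the 20 was in Ube2r2, an E2 of the SCF ligases, on the + strand of chromosome 4 at position 41190985. It was methylated at 95.9% of 1078 reads and 99.9% of 874 reads in the untreated libraries and was not listed with dTAG13, where dTAG13 replicate 2 had a listed site 53 bases away and up to 975 reads within 100 bases. Ube2v1, an E2 variant without catalytic cysteine that pairs with Ube2n, carried a site on the − strand of chromosome 2 at 167450598 with 91.6% of 583 reads and 88.6% of 378 reads. That site stood at 17.1% of 111 reads in dTAG13 replicate 1 and was not listed in replicate 2. Usp28, a deubiquitinase that stabilises MYC, carried a site at 48952933 on the + strand of chromosome 9 with 73.8% of 381 reads and 84.4% of 237 reads, which neither dTAG13 library listed although listed sites within 100 bases reached 247 and 121 reads.

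Usp1, which removes ubiquitin from the Fanconi protein FANCD2, had a site at 98822969 on chromosome 4 at 79.4% of 238 reads and 92.6% of 217 reads untreated. Usp8, which acts on endosomal receptors, had a site at 126578326 on chromosome 2 at 87.7% of 65 reads and 78.1% of 105 reads. Neither was listed with dTAG13. Ube2f, another E2 for NEDD8, had a site at 91213372 on chromosome 1 at 70.2% of 325 reads and 85.2% of 461 reads, and it was not listed with dTAG13 although sites within 100 bases reached 361 and 456 reads there. Sites of Usp48, Usp25 and Usp34, also unlisted with dTAG13, spread more between the untreated libraries, at 98.8% and 81.3%, 68.1% and 98.2%, and 100% and 58.1%.

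Ube2q1 showed how close listed positions of the groups could lie. Its position 89690559 on chromosome 3 was listed at 95.1% of 82 reads and 83.8% of 235 reads in the untreated libraries only. Position 89690556, 3 bases away, was listed at 100% of 34 reads and 15.9% of 138 reads in the dTAG13 libraries only, and 89690565 at 62.6% and 79.7% untreated and 100% of 34 reads in dTAG13 replicate 1. In Usp42, named after its values were seen, a position at 77.9% and 60.6% in the untreated libraries only lay 188 bases from one at 100% of 26 reads and 100% of 31 reads in the dTAG13 libraries only. Across all members, 225 positions in 63 genes were in both untreated tables and no dTAG13 table, and 61 positions in 36 genes were in both dTAG13 tables and no untreated table. These were 80.6% of the positions shared by the untreated libraries and 75.3% of those shared by the dTAG13 libraries, against 80.0% and 68.7% in other genes. All 36 genes with positions of the second kind also had positions of the first kind.

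Positions listed in 3 libraries moved in both directions. Of the 43 listed in both untreated libraries and 1 dTAG13 library, the dTAG13 level was below both untreated levels at 22, above both at 12 and between them at 9, and in other genes 41.2% were below and 31.3% above. At an untreated mean of at least 50%, 6 of 9 were below and 1 above (other genes 73.5% and 5.67%). Under 50%, 16 of 34 were below and 11 above (other genes 31.3% and 39.2%). A level under 10% could not be listed, so a site with a low untreated level had little room to appear lower. A Usp46 site (74160976, chromosome 5) stood at 99.2% and 100% untreated and 58.6% in dTAG13 replicate 2, and a Usp28 site (48952861, chromosome 9) at 100% and 77.5% against 16.5%. Sites that were higher included 1 in Usp21, a histone deubiquitinase (171109599, chromosome 1), at 13.2% and 14.1% untreated and 92.3% of 169 reads in dTAG13 replicate 1. A site of Ube2c, the E2 of the anaphase-promoting complex (164614446, chromosome 2), stood at 17.7% and 13.6% untreated and 65.6% of 154 reads in dTAG13 replicate 2. A Ube2d3 site (135171569, chromosome 3) stood at 10.0% and 11.4% of 1068 and 1104 reads untreated and 52.8% of 212 reads in dTAG13 replicate 1. Each of these 5 sites has 1 dTAG13 value, and they were picked for the size of their difference, so no test is given.

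A position can be listed in all 4 libraries only if its level was at least 10% in each, so one that fell below that level with dTAG13 could not be among the 11 that were. Their levels overlapped between the groups at every position but that of Ube4a. They lay in Ube2e3 and Ube2v1 (2 each), Ube3a, Ube4a, Usp7, Usp9x, Usp14, Usp22 and Usp28. In Ube2e3 the position 78744147 of chromosome 2, read 1083 to 1908 times, stood at 22.9% and 26.3% untreated and 27.6% and 20.1% with dTAG13, and the other at 12.4% and 20.3% against 18.7% and 22.8%. In Ube2v1 the positions stood at 23.0% and 22.0% against 23.4% and 22.0%, and at 18.0% and 14.2% against 15.7% and 18.3%. The groups overlapped at each of these 4 positions of E2 genes.

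In Usp7 the position 8507571 of chromosome 16 stood at 14.8% and 16.4% untreated and 12.2% and 15.4% with dTAG13, on 523 to 1803 reads. In Usp9x the shared position stood at 24.6% and 10.8% against 15.5% and 18.4%, and in Usp14, a deubiquitinase of the proteasome, at 21.8% and 10.3% against 13.0% and 16.0%. Usp22, the deubiquitinase of the SAGA complex, stood at 10.6% and 15.6% against 21.8% and 10.4%, and Usp28 at 18.8% and 18.1% against 29.0% and 18.3%. The groups overlapped at all 5 of these positions of USP genes. The Ube3a position stood at 100% and 90.3% untreated and 92.9% and 100% with dTAG13, but had as few as 16 reads.

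A quasi-binomial logistic model of the A and G reads was fitted to all 2321 sites of the tables that had at least 20 reads in each library, with Benjamini-Hochberg adjustment over all of them. It included 10 of the 11 positions, without that of Ube3a, and called 1 at an adjusted p under 0.05, that of Ube4a. The background of calls was 2.28% of all tested sites, with 2.20% lower and 0.0862% higher after dTAG13. The Ube4a site was already known from these tables when the genes were chosen, so its call is part of the choice and supports nothing. The other 9 positions had adjusted p-values from 0.766 to 0.997 in this model. When each library was left out in turn, the model called no member site and no site of the table, and the Ube4a site had unadjusted p-values from 0.00961 to 0.0263 and adjusted p-values from 0.191 to 0.367.

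**Figure D4:**
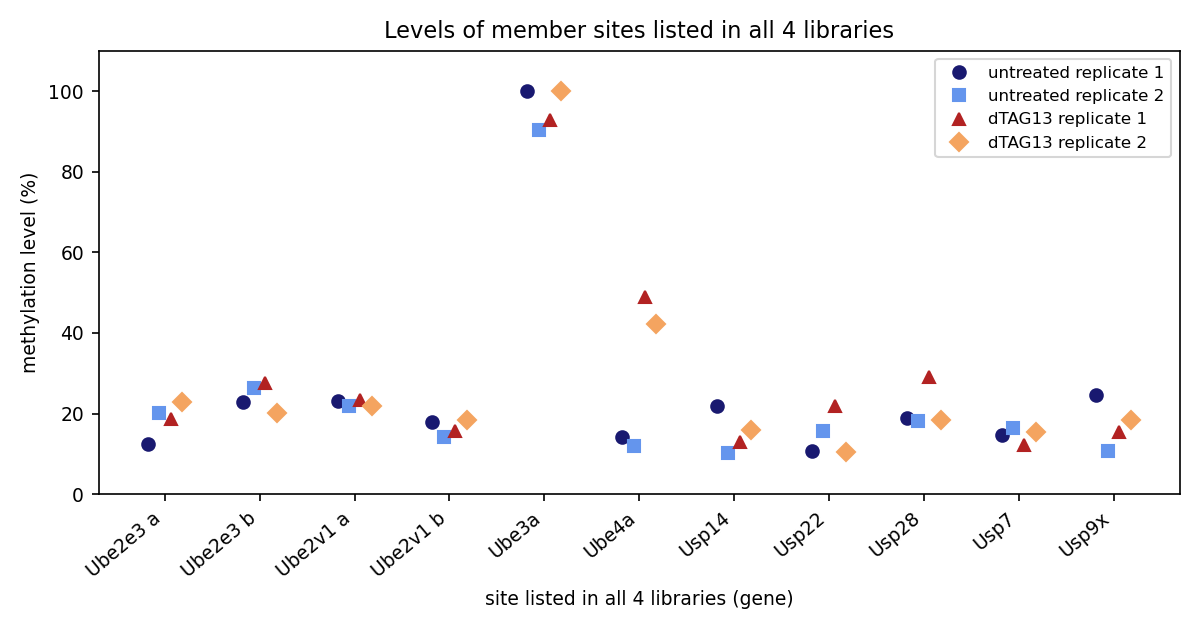
Methylation level in percent (y axis) of the 11 member positions listed in all 4 libraries (x axis, by gene; a and b are separate positions); each symbol is 1 library. The 2 dTAG13 symbols of Ube4a lie at 48.8% and 42.1%, above both untreated symbols at 14.1% and 12.1%.

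Ube4a, which extends ubiquitin chains on substrates already marked, was followed position by position because of that site. It is on the − strand of chromosome 9 at position 44837070, and 43 of 305 reads and 17 of 141 reads were A in the untreated libraries, against 21 of 43 and 96 of 228 with dTAG13. The levels were 14.1% (Wilson 95% interval 10.6% to 18.5%) and 12.1% (7.67% to 18.5%) untreated and 48.8% (34.6% to 63.2%) and 42.1% (35.9% to 48.6%) with dTAG13. The group means were 13.1% ± 1.44 and 45.5% ± 4.76 (SD, n = 2 each), a difference of 32.4 percentage points, with no overlap of libraries or intervals. These values are a description, as the gene was chosen for them.

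The gene as a whole had fewer listed sites with dTAG13, at 26 and 32 untreated and 11 and 18 with dTAG13. Its coverage was 75.8 and 80.6 untreated and 52.8 and 96.2 with dTAG13, which overlapped, and its sites per 100 units of coverage were 34.3 and 39.7 untreated and 20.8 and 18.7 with dTAG13. In all, 81 positions were listed over 36888 bases, from 44834511 to 44871399, of which 77 were in 1 library, 3 in 2 and 1 in all 4. Within 3000 bases of the 3′-most position lay 38 of the 81, among them the shared site at a distance of 2559 bases.

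The 3 positions in 2 libraries followed no common order. Position 44836137 was listed in both untreated libraries at 11.7% of 60 reads and 11.5% of 209 reads, and position 44851340 at 43.8% of 432 reads and 40.5% of 121 reads. Neither was listed with dTAG13. Position 44836407 was listed at 13.3% of 83 reads in untreated replicate 1 and 100% of 61 reads in dTAG13 replicate 2.

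Around the shared site, 9 positions were listed between 169 and 255 bases downstream, each in a single library. In the untreated libraries 6 of them ranged from 11.7% to 20.7% on 132 to 306 reads. In dTAG13 replicate 2 the other 3 stood at 10.0% of 239 reads, 52.2% of 159 reads and 25.2% of 163 reads, and dTAG13 replicate 1 listed none. On the other side, 67 bases upstream, position 44837137 stood at 100% of 166 reads in untreated replicate 2. Of these neighbours none was listed in more than 1 library, so their levels could not be compared between the groups.

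Farther upstream the Ube4a sites came in small clusters. From 10112 to 10208 bases from the 3′-most position, untreated replicate 1 listed 4 sites, 2 of them at 100% of 58 and 140 reads and 2 at 12.5% and 18.9%, and each dTAG13 library listed 1, at 18.5% and 100%. From 24817 to 24926 bases, dTAG13 replicate 2 listed 3 sites at 100% of 36 to 50 reads and dTAG13 replicate 1 listed 1 at 100% of 46 reads, while untreated replicate 1 listed 3 at 24.1% to 52.8% and untreated replicate 2 listed 1 at 11.9%. In dTAG13 replicate 1, 9 of the 11 Ube4a sites stood at 100%, on 16 to 98 reads. At 100% stood 4 of 26 and 7 of 32 sites in the untreated libraries and 7 of 18 in dTAG13 replicate 2, whose median levels were 27.8%, 50.5% and 40.9%.

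**Figure D5:**
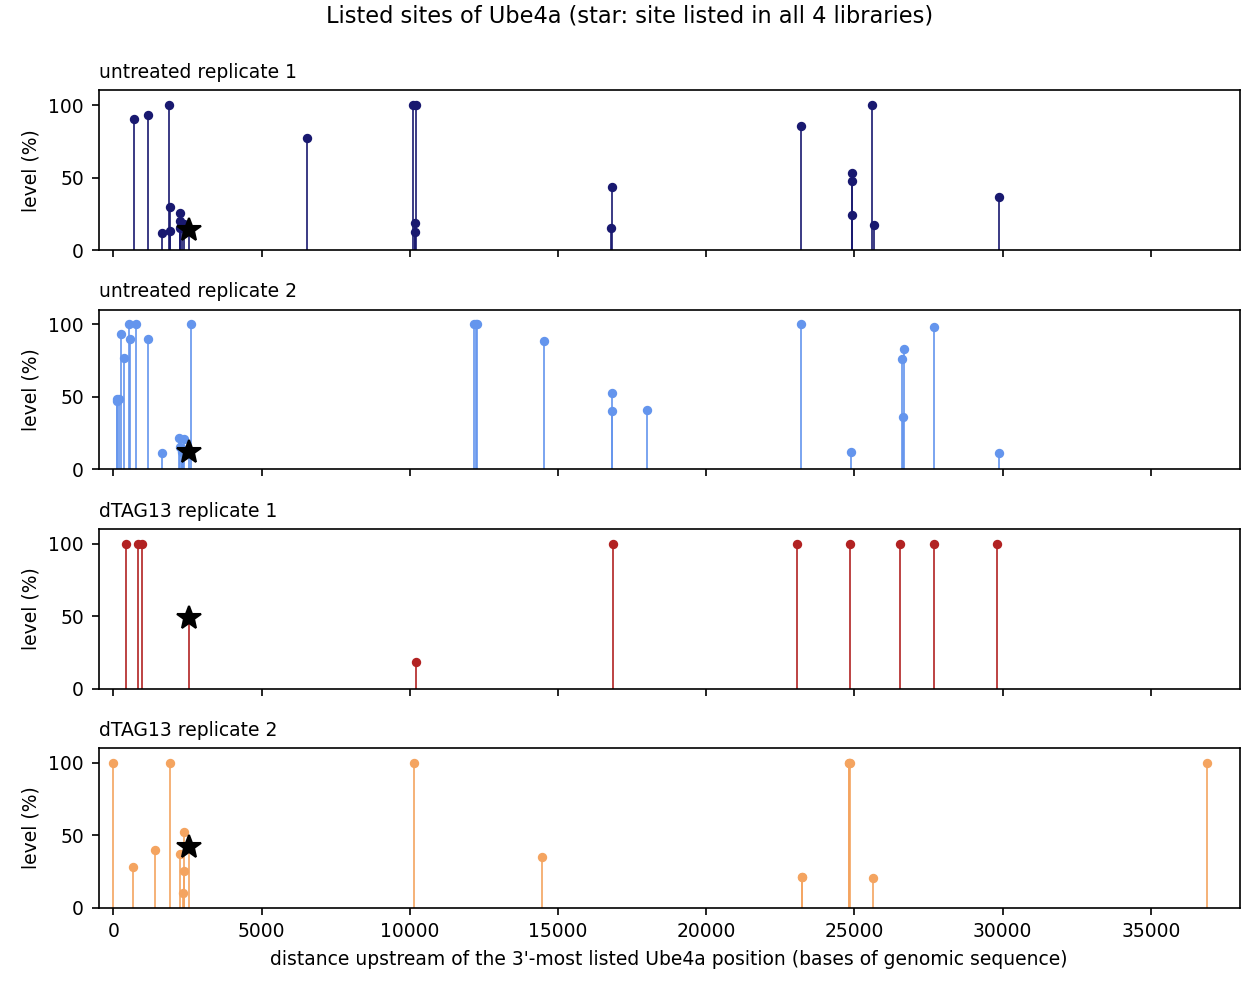
Listed sites of Ube4a in each library: the x axis is the distance in bases upstream of the 3′-most listed position, the y axis the methylation level in percent, and each stem is 1 listed site. The star marks the position listed in all 4 libraries, at 2559 bases, which stands at 14.1% and 12.1% in the untreated panels and 48.8% and 42.1% in the dTAG13 panels; 9 of the 11 sites of dTAG13 replicate 1 are at 100%.

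Transcript coverage of the module was compared to ask whether these genes changed in abundance over the 8 h. Values were log2 coverage centred on each library's median gene, tested with limma over the 12520 genes listed in all 4 libraries. No member passed an adjusted p under 0.05, nor did any gene (background 0%), the smallest adjusted p being 0.363. At an unadjusted p under 0.05, 7 of 78 members were lower and 3 higher, where 8.34% of all genes were lower and 4.40% higher, or 12.7% in either direction. The median log2 difference was -0.10 in the members and -0.07 over all genes tested.

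The member with the smallest p was Ube2e2, with coverage of 233 and 208 untreated and 83.3 and 101 with dTAG13. Its groups did not overlap and its log2 difference was -1.18 ± 0.21 (SE), with an adjusted p of 0.363 by limma. Ube2l3 followed, at 670 and 660 untreated and 299 and 456 with dTAG13 (log2 difference -0.77 ± 0.20). Ube2m, Usp22 and Ube2d3 had log2 differences of -0.68, -0.79 and -0.62, with the same adjusted p of 0.363 by limma. Of the 5 genes with the smallest p on this side 4 were E2 genes, a class that makes up 29 of the 78 members tested. E2 genes were also among the 5 with the smallest p on the other side, namely Ube2v2, Ube2l6 and Ube2f.

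On the other side, Ube2v2, an inactive E2 variant like Ube2v1, had coverage of 47.3 and 52.8 untreated and 54.9 and 88.5 with dTAG13, a log2 difference of 0.56 ± 0.21. Usp13 had 27.7 and 35.4 untreated and 48.8 and 45.0 with dTAG13 (0.66 ± 0.27), and Ube2l6, the E2 for the interferon-induced modifier ISG15, had 43.7 and 81.7 against 95.3 and 103 (0.81 ± 0.33). Usp44 and Ube2f had log2 differences of 0.45 and 0.41. Adjusted p-values of these 5 genes by limma ran from 0.374 to 0.437. The log2 difference was -0.01 ± 0.20 for Usp9x, -0.03 ± 0.23 for Ube3a and -0.05 ± 0.23 for Ube4a.

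Among other pathway genes, most E1 genes and most deubiquitinases outside the USP family had fewer listed sites with dTAG13, while the ubiquitin genes overlapped. Of the 6 E1 genes examined, 5 were listed in every library, 4 of them with fewer sites in both dTAG13 libraries, and their summed sites were 191 and 218 untreated and 162 and 151 with dTAG13, a ratio of 0.765. Uba1, the main ubiquitin E1, had 65 and 66 sites untreated and 59 and 49 with dTAG13. Of 31 deubiquitinases outside the USP family, 28 were listed in every library, 18 with fewer and 1 with more sites in both dTAG13 libraries, and the ratio of their summed sites was 0.707. Of all genes listed in every library, 44.6% had fewer sites in both dTAG13 libraries and 4.53% had more. Fewer sites were found in 57.3% of those with at least 10 untreated sites. The ratio in all genes outside the 81 was 0.715. The 4 genes that encode ubiquitin itself had 27 and 34 sites untreated and 16 and 31 with dTAG13, which overlapped. None of the genes tested on these lists passed an adjusted p under 0.05 for coverage in limma. Unadjusted, 1 of 5 E1 genes and 3 of 28 other deubiquitinases were lower and none higher. Over all genes 8.34% were lower and 4.40% higher.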

How the data were processed

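Each of the 4 libraries had 1 table of called sites deposited by the authors, with counts of A and G reads and of A reads, not normalised. The level is the deposited fraction of A reads, recomputed from the counts, and the conversion rate is a second deposited fraction per gene. Gene coverage is a deposited signal, 1 value per gene and library, not normalised to depth, whose definition is not given in the sources used here. The deposited p-value and adjusted p-value of each site were used only to restrict sites. Aligner and caller are not given in the sources used here, and the submitters' processing notes name mm10.

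The genes and lists were chosen with earlier results of these data known. Genes are named if they hold a tested site, are of the Ube3 or Ube4 classes, or rank first by number of sites (5), by sites per unit of coverage (5), by untreated level of a shared site (10) or by coverage p in each direction (5). Reads were modelled per site by quasi-binomial regression with dispersions moderated by limma 3.58.1 and held at 1 or above, and coverage by limma, in R 4.3.3. Both were run on simulated data, with shifts larger than the coverage differences and the Ube4a difference given above. Power at differences of the size seen here was not tested. Single values were compared by exact permutation tests in scipy 1.17.1. Alternatives included edgeR 4.0.16.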

Additional observations from a re-analysis of the deposited data

How the results depend on the processing

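The ratio of listed member sites moved by more than the spread of its library pairs (SD 0.0437) only when sites had to reach 20%, to 0.733. The ratio per unit of coverage, whose library pairs spread more widely, moved by more than its own SD only in genes with coverage within 1.5-fold, to 0.753. Leaving out each library gave 0.638 to 0.713 and 0.772 to 0.920. The recovery ratio was 0.198 for sites at 50% or more, and 0.417 and 0.478 without dTAG13 replicate 2 and replicate 1. The Usp over Ube2 ratio was 0.803 in genes with coverage within 1.5-fold and 0.793 as a mean over genes, both added after seeing the data, and 0.677 to 0.702 without each library. The count of called member sites was 0 with at least 50 reads, where the Ube4a site was not tested, 0 with limma on log2 odds and 2 with Fisher's exact test on summed reads. It was 0 without any 1 library. With the replicate number as a block it was 0 member sites and 0 sites in all, but the numbers do not pair the libraries (correlation of same-numbered deviations 0.0193 for levels and 0.00227 for coverage). The adjusted p of the Ube4a site ran from 2.58e-17 (Fisher's exact test) to 0.367 (quasi-binomial model without untreated replicate 1). No member passed in coverage under any of the alternatives, the block included (count 0). With no centring 15 genes passed in the whole table. The 10 genes named for coverage kept their sign in 90 of 90 alternatives, but they were chosen by p in these same data, so this supports nothing. Depth limits these results: absence from a table is not a measured level, and 2 libraries per group leave few recurrent sites to test.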
